A study of Mus musculus with 75 samples.

Results

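Livers of 10-month-old male mice that had been exposed to tributyltin (TBT) through their mothers and were labelled low-risk were compared with livers of vehicle mice of the same age. The comparison took every 10-month library with the risk label low risk TBT (5 libraries) and every one labelled Vehicle (6 libraries), which is 11 of the 75 libraries of the series. All mice were C57Bl/6. The dams drank water with TBT (3.07 µM, a daily 0.5 mg/kg), and exposure ended at weaning, so the offspring were sampled long after exposure. Vehicle livers carry the numbers 1, 2, 4, 5, 6 and 7, and low-risk livers the numbers 2, 4, 8, 9 and 10. Another 10-month control library, labelled as a vehicle tumor, was left out. Libraries of uninvolved liver from high-risk mice given the same TBT (6 libraries at 10 months) shared the model fit, and libraries of 5 months (16 low-risk TBT, 8 vehicle) and 3 weeks (8 TBT, 8 vehicle) served the comparison across ages. How a mouse came to be called low-risk, its litter and the hour of sampling are not in the labels. Nothing in them states that the libraries of a group came from separate litters, so the p-values measure the spread between these libraries.

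TBT is an organotin compound that binds the retinoid X receptor (RXR) and the peroxisome proliferator-activated receptor gamma (PPARgamma), a pair of nuclear receptors that act together on genes of fat storage. In the liver, PPARalpha drives fatty acid oxidation, also as a partner of RXR. Other programmes of the adult male liver that bulk RNA reports on are the circadian clock, the growth-hormone-dependent male-biased genes, and the interferon-stimulated genes of innate immunity.

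Total RNA was sequenced, all 11 libraries in the same sequencing batch. Total counts ran from 26.2 M to 31.0 M per vehicle library and from 26.4 M to 33.5 M per low-risk library. Between 21078 and 22578 genes had at least 1 count. As a check of the liver label, the 15 defining hepatocyte genes summed to 145250 to 172970 CPM (counts scaled to a common library size, with TMM factors) in vehicles and to 135650 to 148830 CPM in low-risk livers. Xist, the RNA of the inactive X chromosome, was at most 1.26 CPM, and 4 Y-linked genes together were at least 174 CPM. Over the genes tested, the correlation of log2 CPM between libraries was 0.979 to 0.985 among vehicles, 0.980 to 0.987 among low-risk livers and 0.979 to 0.986 between the groups. The first 3 principal components held 14.98%, 12.99% and 12.21% of the variance, and the groups overlapped on each. On the third, low-risk livers 2, 4 and 8 lay at -25.7, -11.6 and -34.5, below the lowest vehicle at -0.64. Low-risk livers 9 and 10, at 9.28 and 0.43, lay within the vehicle range there. In the 3-week exposed group, replicate 4 had 348 CPM of Xist and 7.08 CPM of the Y-linked genes, against its male label.

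No gene passed the test at an adjusted p of 0.05. Of 16338 genes tested with edgeR, 0 were called (0%), and the smallest adjusted p was 0.9999. At an unadjusted p under 0.05 there were 688 genes (4.21%), 427 of them higher (2.61%) and 261 lower (1.60%) in low-risk livers. The low-risk livers all lay above all vehicles for 59 genes (0.361%) and all below for 62 genes (0.379%). The median log2 fold change over all genes was 0.0049. The standard error was 0.16 at the median gene, and the 95% interval of the log2 fold change lay between -1 and 1 for 13218 genes, or 80.9%. Among the 12413 genes that averaged 1 CPM or more it did so for 95.6%. A 2-fold difference in either direction is therefore outside the interval of most expressed genes.

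The count depended on the test and on which libraries shared the fit. The fit above also held the uninvolved livers of 10-month high-risk mice, whose spread entered the shared estimate. With the 11 libraries alone, edgeR again called 0 genes, with a smallest adjusted p of 0.22 and 1127 genes at an unadjusted p under 0.05, and limma voom called 0. DESeq2 on the 11 libraries, an alternative added after the data had been seen, called 42 of 13278 genes (0.316%), 16 higher and 26 lower. DESeq2 in the shared fit called 1 gene (0.00612%), Cela2a. The accounts below give each gene's value from the shared edgeR fit, and give the DESeq2 calls on the 11 libraries for the genes named.

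**Figure D1:**
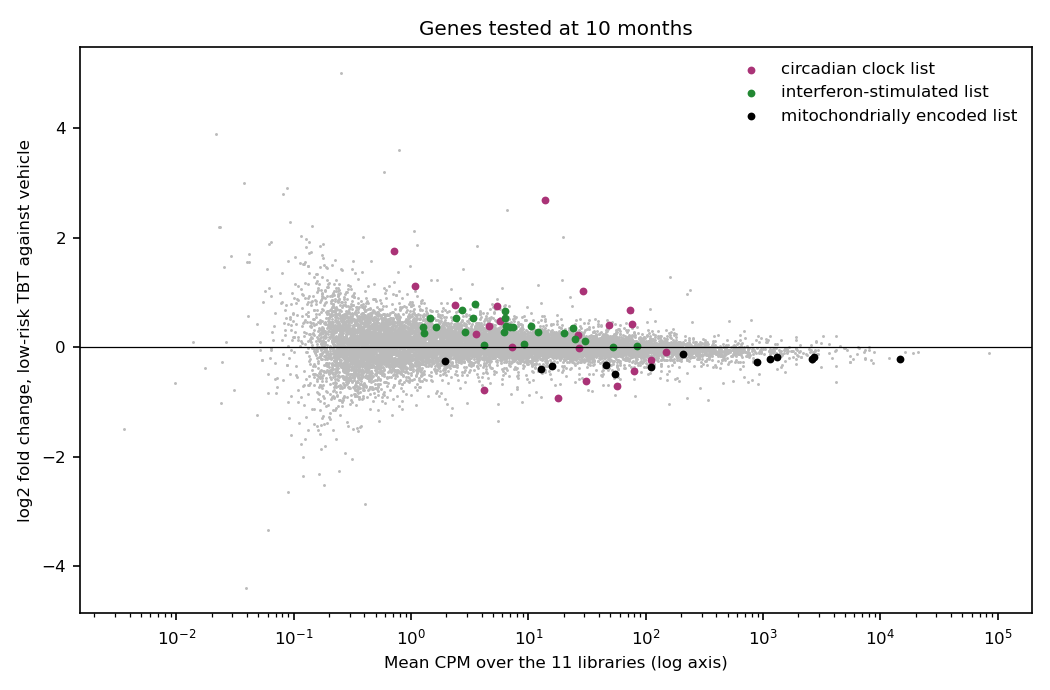
Each grey point is 1 of the 16338 genes tested, with its mean CPM over the 11 libraries on a log axis and its log2 fold change of low-risk TBT against vehicle livers on the other axis. Coloured points are the members of the circadian clock, interferon-stimulated and mitochondrially encoded lists: the mitochondrial genes all lie below 0, the interferon-stimulated genes all above it, and the clock genes on both sides.

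Among the lists with at least 10 tested genes, the circadian clock list held the largest share of members at an unadjusted p under 0.05, and low-risk livers 2 and 4 held most of its extreme values. The clock is a loop in which CLOCK and BMAL1 (gene Arntl) activate genes through E-boxes (CACGTG), PER and CRY proteins inhibit them, and REV-ERB (Nr1d1, Nr1d2) and ROR receptors compete on the promoter of Arntl. Of 22 clock genes tested, 5 were higher and 3 lower at an unadjusted p under 0.05, or 36.4% against 4.21% of all genes, and 0 at an adjusted one. The list median was 0.31. The promoters of these 8 genes were searched for the E-box in the RefSeq table of the build GRCm38.p6, from 250 bases before to 50 after each start. The table held 18 of the 22 listed genes, and 7 of these 8. The E-box was searched after the data had been seen. It stood in Ciart, Bhlhe41 and Cry1, and over the whole list in 26.1% of 23 promoters, against 7.15% of all 32851 promoters. The 3 are shown because they carry the element through which the clock's activators act, with the E-boxes in capitals. The E-box reads the same on both strands.
Ciart (chr3:95882179-95882478, minus strand): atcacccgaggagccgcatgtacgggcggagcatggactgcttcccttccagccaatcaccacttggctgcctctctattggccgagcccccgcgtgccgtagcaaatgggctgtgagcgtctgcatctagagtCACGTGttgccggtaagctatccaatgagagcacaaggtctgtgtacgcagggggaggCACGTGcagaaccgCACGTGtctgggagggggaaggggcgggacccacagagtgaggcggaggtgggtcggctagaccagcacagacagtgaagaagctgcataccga
Bhlhe41 (chr6:145865371-145865670, minus strand): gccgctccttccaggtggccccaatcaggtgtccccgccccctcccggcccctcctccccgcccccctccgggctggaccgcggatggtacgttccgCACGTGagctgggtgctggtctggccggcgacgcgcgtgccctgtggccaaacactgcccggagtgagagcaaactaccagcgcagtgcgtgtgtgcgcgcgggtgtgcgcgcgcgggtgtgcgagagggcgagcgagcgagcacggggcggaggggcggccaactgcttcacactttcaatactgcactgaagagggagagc
Cry1 (chr10:85185005-85185304, minus strand): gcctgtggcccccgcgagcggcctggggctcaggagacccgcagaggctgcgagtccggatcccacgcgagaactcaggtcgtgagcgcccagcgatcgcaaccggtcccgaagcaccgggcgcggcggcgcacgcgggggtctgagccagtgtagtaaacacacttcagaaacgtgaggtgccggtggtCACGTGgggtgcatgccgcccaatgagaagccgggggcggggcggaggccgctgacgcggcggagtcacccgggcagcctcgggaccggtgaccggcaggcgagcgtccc
No E-box stood in the windows of Dbp, Nr1d1, Nr1d2 and Nfil3, which says nothing of other positions.

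Dbp, a transcription factor of the clock's output (chr7:45705088-45710203), was at 1.27 CPM in the lowest vehicle, 2.62 at the median and 11.97 in the highest. In low-risk livers 2, 4, 8, 9 and 10 it was at 56.8, 56.3, 6.11, 6.32 and 3.62 CPM. The high mean of the low-risk group came from livers 2 and 4, and the other three lay within the vehicle range. The log2 fold change was 2.68 ± 0.90 (SE), and 2.16 without liver 2 and 2.17 without liver 4. Ciart, a repressor of CLOCK and BMAL1 whose promoter held 3 E-boxes, was at 0.114, 0.306 and 0.746 CPM in the lowest, median and highest vehicle and at 1.83, 2.64, 0.467, 0.305 and 0.536 CPM in the 5 low-risk livers. Again livers 2 and 4 were the only ones above the vehicles. Bhlhe41, another repressor, ran from 0.428 to 1.24 CPM in vehicles and was at 3.49 and 2.15 CPM in low-risk livers 2 and 4.

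Nr1d1, which encodes REV-ERB alpha, ran from 9.74 to 29.1 CPM with a median of 19.3 in vehicles, and was at 58.8, 53.4, 29.4, 31.5 and 27.6 CPM in the low-risk livers, a log2 fold change of 1.02 ± 0.34. Low-risk livers 2 and 4 were the highest again, 8 and 9 stood just above the highest vehicle, and only 10 was inside the vehicle range. Nr1d2 differed by 0.68 ± 0.25. The genes that were lower included Cry1, at 17.1, 19.3 and 37.1 CPM in the lowest, median and highest vehicle and 6.16, 7.55, 16.2, 14.8 and 15.2 CPM in the low-risk livers. Every low-risk liver was below every vehicle, and livers 2 and 4 were the lowest. Nfil3, a repressor that opposes Dbp on shared sites, ran from 55.7 to 80.8 CPM in vehicles and was at 26.3, 21.4, 69.8, 47.1 and 45.35 CPM in the low-risk livers. Liver 8 was inside the vehicle range and the other four below it. Among members outside the naming rule, given here because they complete the loop, Arntl was at 36.9 ± 6.25 CPM in vehicles and 23.95 ± 13.8 CPM in low-risk livers (SD, n = 6 and 5), and Npas2 at 5.22 ± 2.66 and 3.01 ± 1.83 CPM. Per2, at 7.27 ± 2.60 and 7.31 ± 2.87 CPM, had a log2 fold change of 0.0042.

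**Figure D2:**
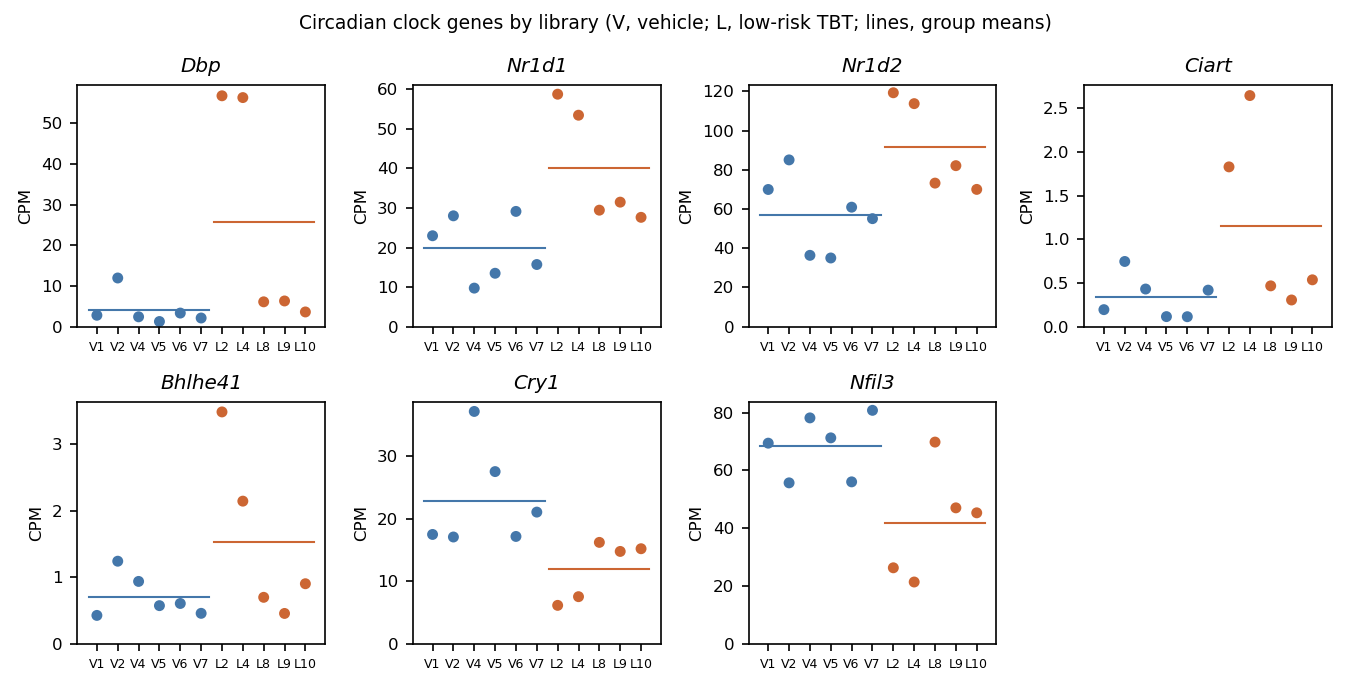
CPM of 7 clock genes in each of the 6 vehicle (V) and 5 low-risk (L) livers, numbered as in the labels, with the group means as lines. Dbp stands at 56.8 and 56.3 CPM in low-risk livers 2 and 4 and at 3.62 to 6.32 CPM in the other three, and Cry1 is lowest in the same 2 livers.

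Interferon-stimulated genes lay on the higher side in low-risk livers: 25 of 25 tested members had a positive log2 fold change, against 51.5% of all genes. Their median was 0.36, and they ranged from 0.0047 to 0.78. At an unadjusted p under 0.05 there were 7 higher and 0 lower members, or 28% against 4.21% of all genes. None passed an adjusted p of 0.05 with edgeR. Interferon signals reach these genes partly through the interferon regulatory factors, whose element was searched on both strands, after the data had been seen, as GAAANNGAAA. It stood in 60% of 20 promoters of the list against 3.44% of all promoters. The table held 18 of the 25 genes. Of the 7 members, 3 had a promoter in the table, and all 3 held the element. They are shown with the element in capitals, as the sequence these genes have in common. In Ifit3 the 2 matches lie on the opposite strand. In Isg15, 3 overlapping matches form a single run.
Isg15 (chr4:156200769-156201068, minus strand): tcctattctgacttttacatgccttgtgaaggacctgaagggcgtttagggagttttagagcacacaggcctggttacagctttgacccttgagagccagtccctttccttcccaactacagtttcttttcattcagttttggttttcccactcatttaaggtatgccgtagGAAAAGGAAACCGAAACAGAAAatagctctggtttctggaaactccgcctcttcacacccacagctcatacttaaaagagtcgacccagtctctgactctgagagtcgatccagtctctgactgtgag
Ifit3 (chr19:34583279-34583578, plus strand): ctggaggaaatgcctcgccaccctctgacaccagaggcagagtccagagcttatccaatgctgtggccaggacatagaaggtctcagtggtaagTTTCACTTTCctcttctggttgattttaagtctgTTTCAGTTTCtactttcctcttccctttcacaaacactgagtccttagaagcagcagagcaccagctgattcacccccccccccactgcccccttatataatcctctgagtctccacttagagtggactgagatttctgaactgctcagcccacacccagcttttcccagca
Igtp (chr11:58199306-58199605, plus strand): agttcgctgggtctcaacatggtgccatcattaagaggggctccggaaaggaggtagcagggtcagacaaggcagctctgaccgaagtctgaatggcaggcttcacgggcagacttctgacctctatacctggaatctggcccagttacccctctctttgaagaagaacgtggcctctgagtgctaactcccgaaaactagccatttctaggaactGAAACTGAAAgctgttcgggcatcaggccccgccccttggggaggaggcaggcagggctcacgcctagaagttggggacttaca

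Isg15, a ubiquitin-like protein attached to other proteins (chr4:156199424-156200818), was at 1.82, 2.10 and 2.55 CPM in the lowest, median and highest vehicle and at 4.06, 3.79, 2.49, 2.78 and 3.75 CPM in low-risk livers 2, 4, 8, 9 and 10. Only liver 8 lay inside the vehicle range. The log2 fold change was 0.67 ± 0.19. Igtp, a GTPase of cell-autonomous defence, was at 19.1, 22.3 and 22.7 CPM in the lowest, median and highest vehicle and at 26.8, 25.5, 26.02, 28.9 and 27.9 CPM in the low-risk livers, with no overlap. Its log2 fold change was 0.34 ± 0.098. DESeq2 on the 11 libraries gave Igtp an adjusted p of 0.0031 and Isg15 one of 0.040. Usp18, the protease that removes Isg15, ran from 3.99 to 5.89 CPM in vehicles and was at 10.1, 10.7, 4.43, 5.56 and 8.675 CPM in the low-risk livers. Livers 8 and 9 lay within the vehicle range. Ifit3, Ifi27l2a and Rtp4 had log2 fold changes of 0.53, 0.78 and 0.39.

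The summed level of the list was 273 to 353 CPM in vehicles and 331 to 365 CPM in low-risk livers, so the sums overlapped. Chemokines, which recruit leukocytes, had a median of 0.39 over 14 tested members, 3 of them higher at an unadjusted p under 0.05 (21.4% against 2.61% of all genes). Cxcl9, an interferon-gamma target, was at 5.83 ± 0.82 CPM in vehicles and 7.70 ± 1.44 CPM in low-risk livers (SD, n = 6 and 5), and Cxcl16 and Cxcl14 differed by 0.44 and 1.06. Without low-risk liver 8, where it was highest, Cxcl14 differed by 0.61. Of the leukocyte marker lists, 13 of 14 tested T and NK cell markers, 19 of 22 macrophage markers, 14 of 16 B and plasma cell markers and 5 of 5 neutrophil markers had a positive log2 fold change, and 0 members of these lists were at an unadjusted p under 0.05. The medians were 0.21, 0.13, 0.21 and 0.35. The T and NK markers summed to 5.4 to 7.44 CPM in vehicles and 6.72 to 8.56 CPM in low-risk livers. The macrophage markers summed to 560 to 764 and 630 to 805 CPM, the B and plasma cell markers to 40.2 to 327 and 62.1 to 149.9 CPM, and the neutrophil markers to 3.41 to 7.39 and 5.89 to 9.41 CPM, so all 4 sums overlapped. The part of these cells in the interferon values was not tested. In bulk tissue, more cells of a type and more RNA per cell cannot be told apart.

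**Figure D3:**
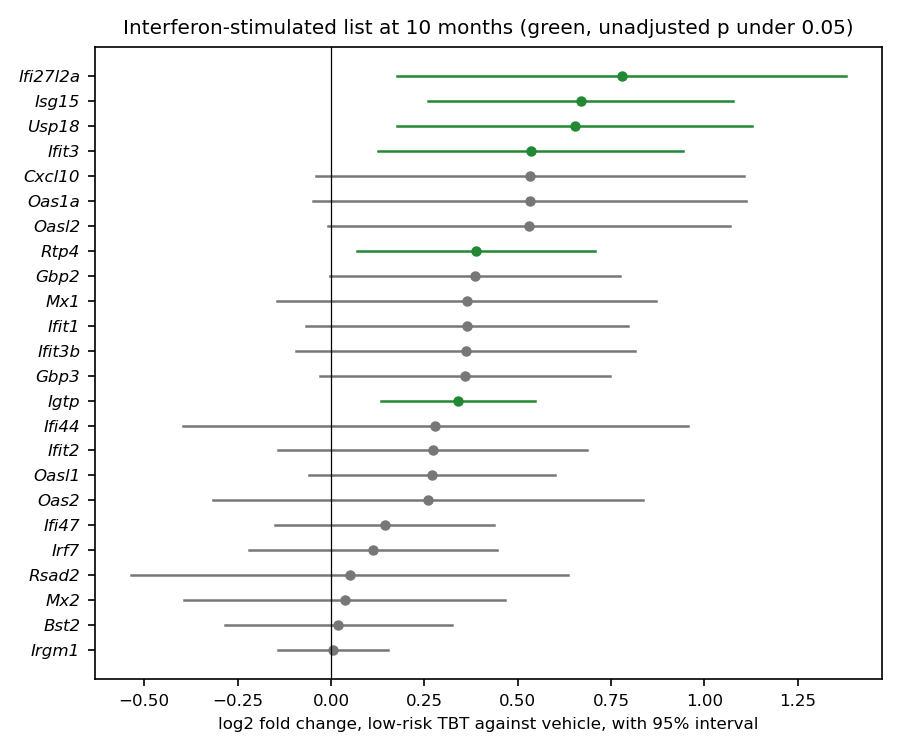
The log2 fold change of 24 of the 25 tested interferon-stimulated genes with its 95% interval. All 24 estimates are above 0, and the intervals of 6 green genes, with the other member at an unadjusted p under 0.05 not shown, exclude it without adjustment for the number of genes tested.

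Mitochondrial RNA took a smaller share of the counts in low-risk livers. Genes of the mitochondrial genome, which encode subunits of the respiratory chain with their own rRNA and tRNA, held 3.36% ± 0.25 of all counts in vehicles and 3.01% ± 0.062 in low-risk livers (SD, n = 6 and 5). The lowest, median and highest vehicle were at 3.14%, 3.32% and 3.83%, and the 5 low-risk livers between 2.94% and 3.08%, with no overlap. An exact two-sided permutation test gave p = 0.0065, and 0.032 after Benjamini-Hochberg adjustment over 10 such measures of the libraries, which were chosen after the data had been seen. Mitochondrial rRNA alone held 1.02% and 0.87% of the counts (exact permutation p = 0.011, adjusted 0.036). The nuclear-encoded rRNA class, a remnant in total RNA libraries from which most rRNA is removed, held 0.082% ± 0.011 and 0.056% ± 0.0042. For this difference an exact two-sided permutation test gave p = 0.0043 (adjusted 0.032).

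All 13 mitochondrial protein genes tested were on the lower side, with a median of -0.26 and 4 at an unadjusted p under 0.05 (30.8% against 1.60% lower among all genes). Those were mt-Co2, mt-Atp8, mt-Atp6 and mt-Nd3, which averaged 62.7, 17.6, 50.2 and 14.4 CPM in vehicles. All 13 summed to 22666 to 29803 CPM in vehicles and 21830 to 22695 CPM in low-risk livers. The sums overlapped slightly, and these named genes held a small part of them. For 4 of the 13 all low-risk livers were below all vehicles, as for 0.379% of all genes. mt-Co2, subunit 2 of cytochrome c oxidase, was at 50.7, 63.7 and 72.1 CPM in the lowest, median and highest vehicle and 36.1, 43.3, 44.2, 46.6 and 51.3 CPM in the low-risk livers, a log2 fold change of -0.50 ± 0.11. Only low-risk liver 10 reached the vehicle range. mt-Atp8 and mt-Atp6, subunits of ATP synthase, differed by -0.35 ± 0.10 and -0.32 ± 0.13. mt-Nd3, of complex I, differed by -0.40 ± 0.14, and mt-Rnr1, the small rRNA, by -0.37 ± 0.11. Lars2, a nuclear gene for the mitochondrial leucyl-tRNA synthetase, was at 142, 182 and 226 CPM in the lowest, median and highest vehicle and at 115, 109, 139, 112 and 117 CPM in the low-risk livers, with no overlap. DESeq2 on the 11 libraries called Lars2, mt-Co2, mt-Co3, mt-Atp6, mt-Atp8 and the tRNA gene mt-Ti. CT010467.1, of the rRNA class, had the smallest adjusted p of the DESeq2 calls (0.00025, log2 fold change -0.64), and Lars2 the next. Of the 42 calls, 11 were mitochondrial genes or genes of an rRNA, snRNA, snoRNA or other small RNA class. Among the 16338 genes of the shared fit, 13 were mitochondrial protein, 2 mitochondrial rRNA and 16 mitochondrial tRNA genes. Another 1 was of the rRNA class, 25 were snRNA, 49 snoRNA and 16 of the other class. Whether the amount of rRNA left in a library has a part in the lower mitochondrial or Lars2 values was not tested.

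**Figure D4:**
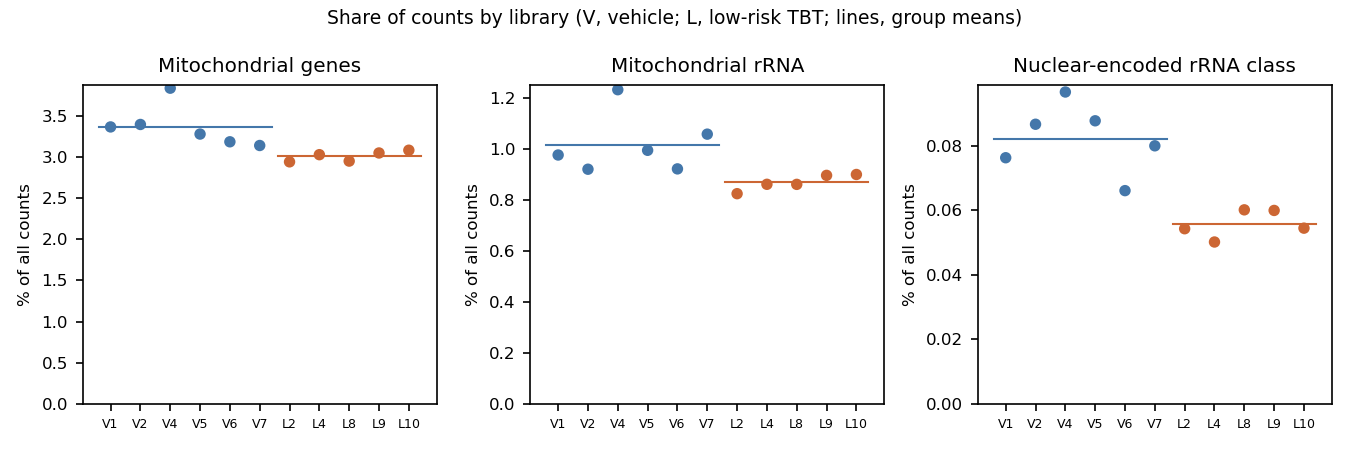
The share of all counts, in percent, on mitochondrial genes, on mitochondrial rRNA and on the nuclear-encoded rRNA class, for each vehicle (V) and low-risk (L) liver, with the group means as lines. In each panel the 5 low-risk livers lie below the 6 vehicles.

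The lists of receptor targets held no tested member at an unadjusted p under 0.05 with edgeR. Of 17 tested PPARgamma and RXR targets of fat storage, 0 were at an unadjusted p under 0.05, with a median of 0.12. Plin2, the coat protein of lipid droplets, was at 836 ± 220 CPM in vehicles and 910 ± 247 CPM in low-risk livers (SD, n = 6 and 5), with a 95% interval of the log2 fold change from -0.37 to 0.61. Of 31 tested PPARalpha targets 0 were at an unadjusted p under 0.05, with a median of -0.086. Fabp1, the liver fatty acid carrier, had an interval from -0.45 to 0.55. Among the receptors, the interval of Rxra ran from -0.085 to 0.35 and that of Ppara from -0.21 to 0.21. Of 28 nuclear receptors tested, Nr1h4, the bile acid receptor FXR, was the only one at an unadjusted p under 0.05, at 151 ± 23.4 and 129 ± 3.11 CPM.

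The receptors bind the half-site AGGTCA, and PPAR and RXR bind 2 of them as a direct repeat with a base between. The half-site, on either strand, stood in 30.8% of 26 promoters of the PPARalpha list and in 40% of 20 promoters of the PPARgamma and RXR list, against 16.3% of all promoters. The exact repeat, which contains 2 half-sites, stood in 0 promoters of either list and in 0.0396% of all promoters. Those proportions describe the windows only.

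Lipid synthesis genes overlapped widely between the groups. The 26 genes of fatty acid and triglyceride synthesis summed to 14455 to 45739 CPM in vehicles and 15876 to 43563 CPM in low-risk livers, with a median log2 fold change of -0.011. Scd1, the stearoyl-CoA desaturase, had an interval from -0.97 to 0.78. Elovl3, a fatty acid elongase that is also a male-biased gene, was at 662 ± 204 and 434 ± 108 CPM. For cholesterol synthesis and uptake, 0 of 24 genes were at an unadjusted p under 0.05, all 24 intervals lay between -1 and 1, and the median was -0.034.

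Male-biased liver genes, which depend on the pulsed growth hormone of males, lay mostly on the lower side. Of 21 tested, 20 had a negative log2 fold change and 6 were lower at an unadjusted p under 0.05 (28.6% against 1.60% lower among all genes), with a median of -0.37. Cyp2d9, a steroid hydroxylase, was at 1245, 1503 and 1729 CPM in the lowest, median and highest vehicle and at 1208, 952, 1388, 1230 and 844 CPM in the low-risk livers, a log2 fold change of -0.40 ± 0.15. Mup21, a urinary pheromone carrier, ran from 386 to 676 CPM in vehicles and was at 474, 248, 325, 409 and 267 CPM in the low-risk livers. Cyp4a12a, Cyp4a12b and Selenbp2 differed by -0.47, -0.41 and -0.93. The 10 female-biased genes tested had a median of -0.36, also negative. Counts over all 49 Mup genes and pseudogenes summed to 22061 ± 3277 CPM in vehicles and 18248 ± 4163 CPM in low-risk livers (SD, n = 6 and 5). The mean difference was -0.29 on the log2 scale, which an exact two-sided permutation test did not separate (p = 0.13, smallest possible p = 0.0022). Without low-risk liver 8 the difference was -0.39 (exact permutation p = 0.043), without low-risk liver 10 it was -0.16 (p = 0.29, exact permutation), and with the tumor-labelled vehicle counted as a vehicle it was -0.037 (p = 0.96, exact permutation). Mup genes are near-identical copies, so counts of single members are uncertain.

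Drug-metabolising enzymes leaned the same way. Of 29 tested, 21 were negative and 5 lower at an unadjusted p under 0.05 (17.2% against 1.60% of all genes), with a median of -0.15. Cyp2c29, a cytochrome P450 induced through CAR, was at 831, 1056 and 1360 CPM in the lowest, median and highest vehicle and 670, 643, 774, 866 and 841 CPM in the low-risk livers, a log2 fold change of -0.49 ± 0.15. DESeq2 on the 11 libraries gave it an adjusted p of 0.045. Ces1d, a carboxylesterase, was at 840, 965 and 1478 CPM in the lowest, median and highest vehicle and 385, 607.5, 714, 835 and 881 CPM in the low-risk livers. Only low-risk liver 10 reached the vehicle range. Cyp2c50 and Cyp2c54 differed by -0.55 and -0.75, and Fmo5, a flavin monooxygenase, by -0.28 (DESeq2 adjusted p = 0.036 on the 11 libraries). The Cyp2c genes are close paralogs whose reads can be shared.

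The methionine cycle regenerates methionine and the methyl donor made from it, and 4 of its 19 tested genes were lower at an unadjusted p under 0.05 (21.1% against 1.60% of all genes). Bhmt, which remethylates homocysteine with betaine, was at 3773, 4921 and 7053 CPM in the lowest, median and highest vehicle and at 3517, 3634, 3110, 2262 and 3504 CPM in the low-risk livers. Dmgdh, which oxidises the dimethylglycine that Bhmt releases, was at 603, 700 and 907 CPM in the lowest, median and highest vehicle and at 553, 516, 501, 550 and 585 CPM in the low-risk livers. For both genes the groups did not overlap, and DESeq2 on the 11 libraries gave each an adjusted p of 0.047. Bhmt2 differed by -0.19. Mat1a, the main hepatic enzyme that makes S-adenosylmethionine, had an interval from -0.61 to 0.20.

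Genes of the matrix leaned higher. Of 25 stellate cell and fibrosis genes tested, 24 had a positive log2 fold change, with a median of 0.21, and 1 was at an unadjusted p under 0.05, a share of 4% beside 4.21% of all genes. It was Col1a1, a chain of collagen I, at 3.23, 3.44 and 5.93 CPM in the lowest, median and highest vehicle and at 11.7, 7.39, 5.02, 3.91 and 7.70 CPM in the low-risk livers. Livers 8 and 9 lay inside the vehicle range. Outside the naming rule, the other fibrillar collagen genes Col1a2 and Col3a1 differed by 0.49 ± 0.24 and 0.52 ± 0.26. Hepatocyte markers leaned the other way: 14 of 15 were negative, with a median of -0.11, and albumin (Alb) was at 86585 ± 7067 CPM in vehicles and 80663 ± 3642 CPM in low-risk livers. Whether a different mix of cells has a part in either was not tested.

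Cela2a, a pancreatic elastase, had the smallest p of all genes. It was at 0.036, 0.059 and 0.43 CPM in the lowest, median and highest vehicle and at 2.23, 0.115, 1.21, 1.496 and 2.88 CPM in low-risk livers 2, 4, 8, 9 and 10, a log2 fold change of 3.59. Low-risk liver 4 lay inside the vehicle range. DESeq2 gave it an adjusted p of 0.030 in the shared fit and 0.0012 on the 11 libraries. Of the 25 acinar genes on the list, 4 were tested, with a median of 0.61. In the fit of the 11 libraries alone, 14710 genes passed the count filter, against 16338 in the shared fit. The median of the acinar members tested there was -0.15, and these may not be the same 4 genes. The summed acinar list was 22.7 to 48.96 CPM in vehicles and 18.6 to 49.7 CPM in low-risk livers, with Ctrl, a chymotrypsin, at 1.07 ± 1.37 and 0.85 ± 0.71 CPM.

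Single livers stood apart in some stress and tumor-associated genes. Slc7a11, the cystine importer, was listed at 0 to 0.042 CPM in vehicles and at 0.034, 0.34, 2.14, 0 and 0.20 CPM in the low-risk livers, highest in liver 8. Asns, which makes asparagine, was at 0.87 to 2.27 CPM in vehicles and at 7.65, 0.92, 18.5, 1.68 and 1.51 CPM in the low-risk livers, so livers 8 and 2 stood apart from the other three. H19, an imprinted fetal RNA, was at 0.40 ± 0.15 CPM in vehicles and 1.84 ± 3.08 CPM in low-risk livers (SD, n = 6 and 5). Its highest level, before TMM scaling, was 6.74 CPM among low-risk livers and 0.50 CPM among vehicles. Over the fetal and tumor-associated list, 1 of 20 tested genes was at an unadjusted p under 0.05 (5%, beside 4.21% of all genes), with a median of 0.10.

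Proliferation genes had a median of 0.0044 over 22 and 2 higher at an unadjusted p under 0.05 (9.09% against 2.61% of all genes). Ccnd1, the G1 cyclin D1, was at 6.07, 9.51 and 13.6 CPM in the lowest, median and highest vehicle and at 30.9, 19.998, 8.71, 13.5 and 11.1 CPM in the low-risk livers. Livers 2 and 4, which had the high Dbp levels, were the only ones above the vehicles. Ccne1, cyclin E1, showed the same 2 livers, at 1.46 and 1.80 CPM against a highest vehicle of 0.86 CPM. Pcna, the replication clamp, had an interval from -0.17 to 0.15. Among stress genes, Hspa8 and Hspa1b, chaperones of the heat shock family, differed by -0.25 and -0.86, and Ddit3 and Dnajb9, of the unfolded protein response, by -0.38 and -0.44. Vehicle 5 was the highest for Hspa1b and Dnajb9, and without it they differed by -0.45 and -0.23.

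Beyond the lists, the naming rule took the genes with the smallest p among those whose groups did not overlap. The 12 higher genes were Eva1b, Slfn8, Mapkapk3, Ptger2, Igtp, Fgfr2, Dnajc27, Msrb3, Cdc42ep1, Synpo, Tmem51 and Sh3bp2, with log2 fold changes of 0.34 to 0.82. Slfn8, of the interferon-inducible Schlafen family, was at 1.96, 2.43 and 2.77 CPM in the lowest, median and highest vehicle and at 4.03, 3.49, 4.32, 3.30 and 3.15 CPM in the low-risk livers. Mapkapk3, a kinase downstream of p38, was at 3.33, 4.62 and 6.19 CPM and at 10.7, 6.70, 6.38, 7.26 and 9.68 CPM. Cdc42ep1, a Cdc42 effector on the actin skeleton, was at 13.99, 15.9 and 17.6 CPM and at 25.2, 27.5, 18.9, 21.4 and 20.5 CPM. The 12 lower genes were Zbtb40, Lars2, Nat8f5, Zfyve1, mt-Atp8, Dmgdh, Madd, Ikbkg, mt-Rnr1, Ces1g, Bhmt and Rap2a. Zbtb40, a zinc finger protein, was at 14.3, 14.9 and 19.4 CPM and at 10.8, 12.7, 12.3, 10.9 and 12.1 CPM, and Nat8f5, an acetyltransferase-like protein, at 9.61, 12.02 and 14.6 CPM and at 6.23, 6.97, 8.01, 8.67 and 8.54 CPM. Of these 24 genes, DESeq2 on the 11 libraries called Eva1b, Slfn8, Mapkapk3, Igtp, Fgfr2, Cdc42ep1, Synpo and Tmem51 among the higher and Zbtb40, Lars2, Nat8f5, Zfyve1, mt-Atp8, Dmgdh and Bhmt among the lower. Over all genes it called 0.316%. The 24 were picked by p and lack of overlap in the same libraries, so these calls are not separate evidence.

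The same contrast at 5 months, with other mice, was used to ask whether the difference changed with age. At 5 months most low-risk libraries, but few vehicle libraries, were of another sequencing batch than the 10-month libraries. Batch was a covariate in the fit, but it is partly mixed with exposure at that age. Vehicle 9 of 5 months had only 2.83 M counts, with 38206 genes detected. With edgeR, no gene passed the test of a change between 5 and 10 months (0 of 16408, 0%), with a smallest adjusted p of 0.15 and 800 genes (4.88%) at an unadjusted p under 0.05. None passed between 3 weeks and 10 months either (0 of 16408, 0%, 145 at an unadjusted p under 0.05), also without replicate 4 of the 3-week exposed group. Other fits called up to 4 genes. Of the 655 genes at an unadjusted p under 0.05 at 10 months that were measured at 5 months, 38.0% had the same sign there, against 43.3% of all 15700 genes. The 100 that were at an unadjusted p under 0.05 at both ages were 15.3% of the 10-month genes and 6.69% of the 5-month genes, and 33 of them had the same sign. Of the 15700 genes, 1494 were at such a p at 5 months. Over all genes tested at each age the shares were 10.1% at 5 months and 4.21% at 10 months. At 3 weeks, 55.7% of the 655 had the same sign, against 52.5% of all genes.

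Several clock genes stood on the same side at both ages. At 5 months the list median was 0.50, with 9 members higher and 1 lower at an unadjusted p under 0.05 (of all 16408 genes, 4% and 6.09%, 10.1% together) and 0 at an adjusted one, which 0.0914% of all genes passed. Dbp differed by 2.51 at 5 months and by 2.68 at 10 months, Nr1d2 by 0.62 and 0.68, and Arntl by -1.03 and -0.62. Cry1, lower at 10 months, differed by -0.040 at 5 months. The interferon-stimulated list had a median of -0.23 at 5 months and 0.36 at 10 months, and the male-biased list medians of 0.11 and -0.37. For the mitochondrial genes the medians were 0.12 at 5 months and -0.28 at 3 weeks, against -0.26 at 10 months. The smallest adjusted p for a change with age was 0.96 in the interferon list and 1 in the clock list.

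**Figure D5:**
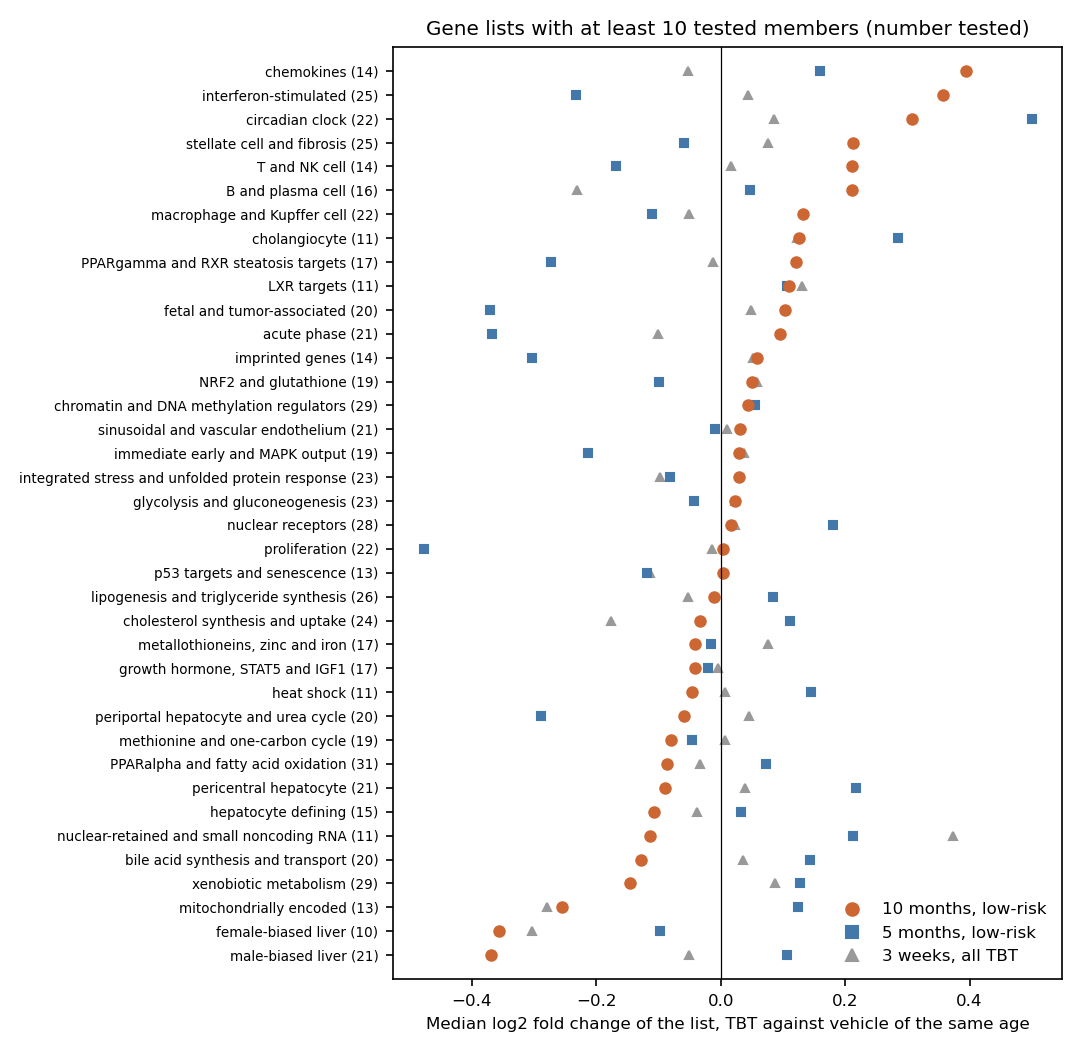
The median log2 fold change of each list with at least 10 tested members, for low-risk TBT against vehicle at 10 months (circles) and 5 months (squares) and for all TBT against vehicle at 3 weeks (triangles). Chemokines, interferon-stimulated genes and clock genes have the highest medians at 10 months (0.39, 0.36 and 0.31), and male-biased genes the lowest (-0.37).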

How the data were processed

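Liver RNA was isolated with RNeasy and made into stranded total RNA libraries, per the labels' protocols. Per the submitters' processing notes, reads were handled with Trim Galore, HISAT2 and featureCounts on mm10. Per the file name, the deposited values are counts that the authors adjusted between batches with ComBat-seq, which can shift counts of every library. Other settings are not given in the sources used here. The table holds 55536 genes, with positions from GENCODE M21.

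Counts were modelled in R 4.3.3 using edgeR 4.0.16 (filterByExpr, TMM, robust quasi-likelihood F test, Benjamini-Hochberg adjustment). The 6 vehicle, 5 low-risk and uninvolved libraries shared the fit, uninvolved libraries 3 and 6 summed. In the fit across ages, the 3-week vehicle libraries that share the number 3 were summed as a single sample. Changes with age came from interaction contrasts with sequencing batch as covariate. CPM are TMM-scaled. Intervals are 95%. DESeq2 1.42.0, limma 3.58.1 voom, RLE factors, no filter, other sample sets and leaving out each library were alternatives. The fit was tested on simulated counts.

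Genes were named by a rule: (1) up to 12 each way with a mean of at least 1 CPM, not predicted, called or with groups that do not overlap; (2) of each of 45 lists, the 2 members with the highest mean and every member at an unadjusted p under 0.05; (3) up to 10 genes called in an alternative; (4) up to 3 genes per library at 20 CPM or more with the largest ratio to the median of the other 10. Some genes that the rule names are not reported here. The members, the lists and the rule were chosen with earlier results of these data known.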

Additional observations from a re-analysis of the deposited data

Results flagged for a closer look

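Of 262 sets of values tested, a set being 1 group's values of 1 measure, 26 had a library far from the others of its group. Chance gives about 1 in 20 for independent sets of normally distributed values. The sets here share libraries and genes, and some genes were chosen by their p in these libraries. The 26 can therefore not be read against that rate. Vehicle 4 was high in the share of counts on mitochondrial genes (3.83%, the others at most 3.39%), in the hepatocyte sum (172970 CPM), in the clock sum (839 CPM), in mt-Rnr1 (2113 CPM) and in Fmo5 (377 CPM), and low in Cyp4a12a (66.2 CPM). Without it the difference in the mitochondrial share was -0.26 percentage points. Vehicle 5 was low in the glycolysis sum (10575 CPM) and high in the sums of the integrated stress and unfolded protein response (4204 CPM) and of B and plasma cells (327 CPM), and in Zbtb40 (19.4 CPM), Dnajb9 (81.5 CPM) and Hspa1b (19.9 CPM).

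Vehicle 1 was high in the p53 target sum (275 CPM), the skeletal muscle sum (2.45 CPM) and Cela2a (0.428 CPM). Vehicle 2 was high in Dbp (11.97 CPM), vehicle 7 in Col1a1 (5.93 CPM) and vehicle 6 in Chic1 (8.81 CPM), while vehicle 6 was low in Msrb3 (13.5 CPM). Low-risk 8 was high in Lars2 (139 CPM) and Slc7a11 (2.14 CPM), and low in Rap2a (24.7 CPM) and Cyp4a12a (50.6 CPM). Low-risk 2 was high in the sum of chromatin regulators (921 CPM), low-risk 9 in Elovl3 (621 CPM), and low-risk 4 was low in mt-Atp8 (11.9 CPM).

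The library labelled as a vehicle tumor entered only the alternative that counted it as a vehicle. Before TMM scaling, its fetal and tumor-associated list summed to 1000.5 CPM, against 70.1 to 104 CPM in the 6 vehicles. In this library, 21 of the 25 genes were above every vehicle.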

How the results depend on the processing

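The count of called genes at 10 months was 0 with RLE factors, no filter, voom, the 2 groups alone, separate uninvolved libraries, protein-coding genes only, the tumor-labelled vehicle counted as a vehicle, and without each library in turn. DESeq2 called 1 gene, and DESeq2 on the 2 groups alone, chosen after seeing the data, 42. Leaving out a library put 509 to 796 genes at an unadjusted p under 0.05 and gave 12673 to 12986 genes for which the interval of each difference lay within -1 to 1. The change from 5 to 10 months was called for 4 genes with DESeq2 (Slc16a12, Slc7a11, B330016D10Rik, Gm10718), for 2 with no batch covariate (Slc16a12, Slc7a11) and for 1 in sequencing batch 1 only (Hpgd), and the change from 3 weeks for 1 with DESeq2 (Gm10718). Without each library in turn, the Mup difference ran from -0.39 (without low-risk 8, exact permutation p = 0.043) to -0.16 (without low-risk 10). Over the same settings the mitochondrial share differed by -0.40 to -0.26 percentage points, with exact permutation p up to 0.014. The cause of these shifts was not tested. Depth was alike in the groups, and genes under 1 CPM had wide intervals.

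Only the numbers 2 and 4 occur in both groups. The deviations of same-numbered livers correlated at 0.088 and -0.044, and those of the other pairs at -0.218 to 0.271. With only 2 pairs this cannot decide whether the numbers pair livers, and the main fit took them as names of samples. With the number as a replicate block, 2 genes were called at 10 months (Slc45a3 and Ccnd1) and 3 for the change from 5 months (Slc37a1, Gnat1, 1700066M21Rik). In the 10-month fit the numbers 8, 9 and 10 occur only among low-risk livers, so the block terms take up these livers. The blocked low-risk difference at 10 months therefore rests on low-risk livers 2 and 4 alone. With the replicate block the log2 fold changes that turned sign were 0.35 for Ppara, 0.44 for Scd1, 0.0086 for Cyp4a12a, 0.18 for Glul, -0.16 for Gstm1, -0.41 for Trbc2, 1.38 for Ighm, 2.24 for Ctrl, -0.46 for Mylpf, 0.98 for Marco, 3.39 for Gm10800, 1.004 for Cyp4a14 and -0.46 for Mup2.

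Of 3717 values of 170 named genes under the alternatives, 3648 kept direction and call, 25 passed a threshold and 44 turned sign. With the tumor-labelled vehicle counted as a vehicle the turned values were -0.080 for Slfn8, -0.13 for Synpo, 0.12 for Ppara, 0.023 for Slc27a5, -0.35 for Ccnd1, -0.18 for Vim, -2.44 for Slc7a11, -0.22 for Gstm1, -0.069 for Ccl9, -0.25 for Cxcl9, -1.07 for Col1a1, -0.37 for Spp1, -0.21 for Pkhd1, -0.74 for Cftr, -0.037 for Fabp4 and -0.27 for Gpm6a. Voom gave 0.075 for Myc, 0.13 for Slc16a5, 1.5025 for the named gene Gm10800 and 0.79 for Cyp4a14, and on the 2 groups alone 0.096, 0.14, 1.51 and 0.84. Leaving out each library in turn turned 7 genes, whose lowest and highest values were -0.20 and 0.14 for Hspa5, -0.51 and 0.57 for Ighm and -0.73 and 0.65 for Ctrl (highest without vehicle 5), -0.39 and 0.37 for Ntrk2 (highest without vehicle 2), -1.55 and 0.038 for Mug4-ps (highest without vehicle 4), -0.79 and 1.31 for Cyp4a14 (highest without vehicle 7), and -0.060 (without low-risk 8) and 2.28 for Mup2.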

Other observations

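The acute phase genes Saa1 and Saa2, serum amyloid proteins made by the liver during inflammation, stood high in single livers of both groups. Saa2 was at 739 CPM in low-risk liver 2 and 347 CPM in vehicle 5, against medians of 30.2 CPM in the other 10 libraries. Over the 21 acute phase genes tested, the median difference was 0.095 on the log2 scale, with 0 genes at an unadjusted p under 0.05 with edgeR. Cyp4a14, a PPARalpha target, was at 895 CPM in vehicle 7 and 417 CPM in low-risk liver 10. Myc, a growth regulator, was at 25.1 CPM in vehicle 2, and Mup2 at 136 CPM in low-risk liver 8.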
